A study of Mus musculus with 6 samples.

Results

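Microglia are the resident macrophages of the retina. A set of 37 genes of these cells was followed in adult retinas of OC2-KO mice, which carry a null allele of Onecut2 and lack this transcription factor of developing horizontal cells, and in adult OC2-WT littermates. Genes were matched to the array by their symbol in the platform annotation, and each was represented by the probe set with the highest mean over all 6 arrays. Of the 37 genes, 36 were named by 62 probe sets, among 18193 genes that the annotation names in all, and Spp1 was not analysed here. The 37 were divided by role into 8 homeostatic genes, 12 genes shared by cells of the myeloid lineage, 13 genes of activation and the lysosome, and 4 antigen-presenting genes. Total RNA of whole isolated retinas was measured on Affymetrix Mouse Genome 430 2.0 arrays, 3 for each genotype, and values are log2 intensities. The null allele is not described as restricted to a cell type, and the age is given only as adult. No label ties an array to an animal of its own, so the errors and p-values below cover the array-to-array spread of these RNAs, part of which may be technical.

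In a healthy retina, microglia sit in the plexiform layers and survey the synapses through receptors for chemokines, nucleotides and sialic acids, and their survival depends on signalling through the CSF1 receptor. Damaged or stressed neurons draw them into other layers, where they turn down surveillance receptors and turn on genes for phagocytosis, lysosomal digestion and lipid handling. Macrophages can also load peptides onto class II histocompatibility molecules for CD4 T cells. In RNA of whole tissue, more cells of a type and more RNA per cell cannot be told apart.

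The 6 arrays had median intensities between 94.9 and 110, and all 15 neuronal and glial retina markers named by the annotation passed the detection filter, a mean log2 intensity above 7 in either genotype. The brightest Onecut2 probe set was at 8.91, 9.21 and 8.52 on the OC2-KO arrays and at 6.09, 6.73 and 7.01 on the OC2-WT arrays, so it separated the genotypes. The Onecut2 probe sets lie at the 3′ end of the gene, which is left in the mutant, and cannot show the loss of the deleted part. Arrays with the same replicate number deviated together from their genotype means and are treated as pairs below. Xist, the RNA of the inactive X chromosome, was measured at 4.77, 12.25 and 2.20 on OC2-KO arrays 1, 2 and 3 and at 2.40, 11.98 and 12.60 on the OC2-WT arrays, so the sexes differed within pair 3. The log2 ratio of the 3′ to the 5′ probe set of Actb, which increases as RNA degrades, was 1.41, 0.74 and 3.39 on the OC2-KO arrays and 1.11, 0.71 and 2.95 on the OC2-WT arrays, highest on both arrays of pair 3.

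Most microglia and macrophage genes had higher means in OC2-KO than in OC2-WT retinas, by amounts that did not pass correction for all probe sets. The list was chosen with earlier results of these data known, so its counts beside those of all genes are only a description. Without any filter, 33 of the 36 genes had the higher mean in OC2-KO retinas, as did 51.3% of all 18193 genes. The median difference was 0.56 on the log2 scale, against 0.0085 over all genes, and single genes lay between -0.067 and 1.50. Every OC2-KO array lay above every OC2-WT array for 5 of the 36 genes, Irf8, Siglech, Tyrobp, Lgals3 and H2-Aa, while 2.87% of all genes did so. For 0 members did every OC2-KO array lie below, against 2.25% of all genes. OC2-KO was the higher array in all 3 pairs for 16 members, and for 12.4% of all genes. At an adjusted p of 0.05 (limma, Benjamini-Hochberg over 21176 probe sets) 0 probe sets (0%) were called, members or others. At an unadjusted p of 0.05, 209 probe sets (0.987%) and 2 members, Tyrobp and Lgals3, passed in limma. Both members were higher in OC2-KO, and 0.732% of the 11065 genes past the filter were higher at this threshold.

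The filter kept 19 of the 36 genes, 12 of them in both genotypes, 6 through the OC2-KO mean alone and 1 through the OC2-WT mean alone. Genes that pass through the OC2-KO mean alone had to be higher there, so the counts over the 19 are given only as a description. Of the 19, 16 had the higher mean in OC2-KO retinas (48.8% of all genes past the filter), 3 did not overlap (1.95%), and the median difference was 0.39 against -0.0048 over those genes. All 17 members below the filter had the higher mean in OC2-KO retinas, as did 55.3% of the 7128 genes below it, with a median difference of 0.91 against 0.089. These dim genes varied far more between arrays of one genotype. The median SD was 0.80 over OC2-KO arrays and 1.36 over OC2-WT arrays below the filter, and 0.35 and 0.38 above it.

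**Figure D1:**
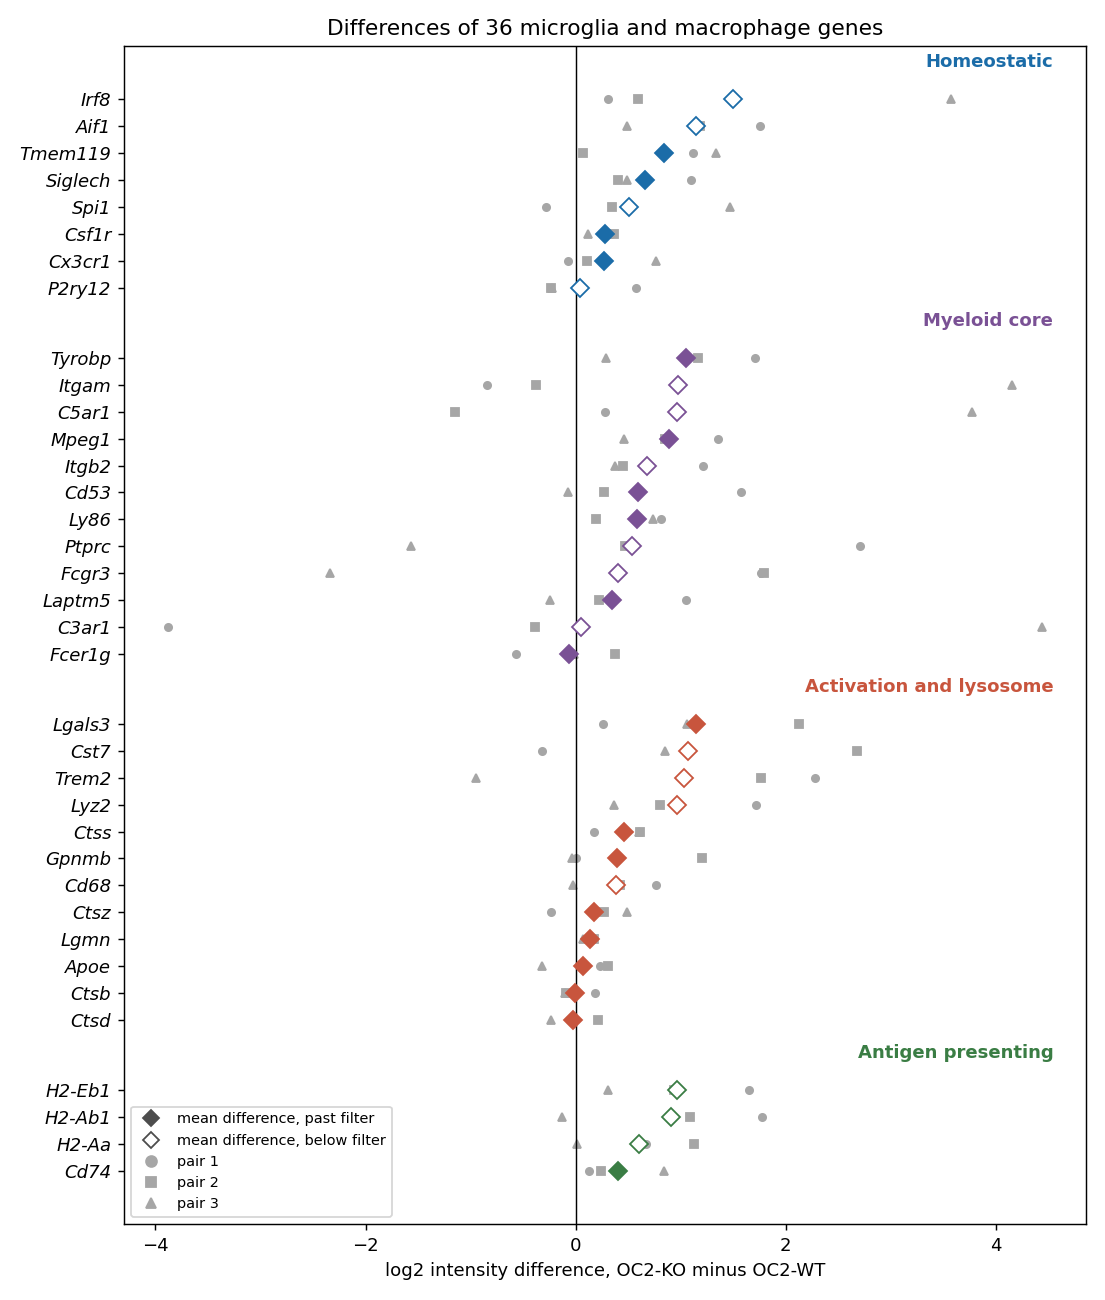
Log2 intensity difference, OC2-KO minus OC2-WT, of 36 microglia and macrophage genes grouped by role; diamonds are the differences of the means (filled where the gene passed the filter), and grey marks are the differences within replicate pairs 1, 2 and 3. All but 3 diamonds lie right of 0, and the pairs of dim genes such as C3ar1, Itgam and Fcgr3 spread over several log2 units on both sides of 0.

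All 8 homeostatic genes of the list had the higher mean in OC2-KO retinas, with a median difference of 0.59 over the 8. Siglech encodes a surface receptor of microglia named for the family of sialic acid-binding receptors. It was measured at 7.72, 6.77 and 7.15 on the OC2-KO arrays and at 6.62, 6.37 and 6.66 on the OC2-WT arrays. The genotypes did not overlap, but the lowest OC2-KO array, at 6.77, was only just above the highest OC2-WT array, at 6.66. The gene passed the filter through the OC2-KO arrays alone. The difference was 0.66 ± 0.29 (SE), a 1.58-fold higher intensity (limma unadjusted p = 0.0529, adjusted p = 1.00). Tmem119, a membrane protein used to tell microglia from other macrophages, had 7.37, 6.94 and 6.75 in OC2-KO and 6.25, 6.87 and 5.41 in OC2-WT retinas. The lowest OC2-KO array lay below the highest OC2-WT array, although OC2-KO was higher in all 3 pairs, and the difference of 0.84 ± 0.39 had an unadjusted p of 0.0681 in limma (adjusted p = 1.00). Tmem119 too passed the filter through the OC2-KO arrays alone.

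The receptors for CSF1, a chemokine and a nucleotide had smaller differences than Siglech and Tmem119. Csf1r, the receptor for CSF1 and IL-34, had 9.68, 10.56 and 10.46 in OC2-KO and 9.35, 10.19 and 10.34 in OC2-WT retinas. OC2-KO was the higher array of every pair but the genotypes overlapped widely, with a difference of 0.28 ± 0.36 (limma unadjusted p = 0.472), and its other probe sets gave 0.46 and 0.31. Without array 1 of OC2-WT the difference was -0.032. Cx3cr1, the fractalkine receptor, had 7.06, 7.78 and 7.70 in OC2-KO and 7.13, 7.67 and 6.93 in OC2-WT retinas, which overlapped, with a difference of 0.27 ± 0.30 (limma unadjusted p = 0.402), and 0.20 with a dim second probe set. P2ry12, the ADP receptor through which microglia extend processes to injury, was just below the filter with means of 6.97 in OC2-KO and 6.93 in OC2-WT. Its difference was 0.040, the smallest of the group, and OC2-KO was the higher array in 1 of 3 pairs.

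The transcription factors of the lineage were measured near the bottom of the scale. Irf8, which specifies microglia together with PU.1, had 6.15, 6.48 and 6.10 in OC2-KO and 5.84, 5.88 and 2.53 in OC2-WT retinas. The genotypes did not overlap, and most of the mean difference of 1.50 came from array 3 of OC2-WT, since pairs 1, 2 and 3 gave 0.31, 0.60 and 3.58. A second Irf8 probe set also did not overlap and had a difference of 1.21. Spi1, which encodes PU.1, differed by 0.51, and Aif1, the calcium-binding protein IBA1, by 1.14, with both below the filter.

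Of the genes shared by cells of the myeloid lineage, 11 of 12 had the higher mean in OC2-KO retinas, with a median difference of 0.59. Over the 6 past the filter it was also 0.59, and 0.11 without array 1 of OC2-WT. Tyrobp encodes DAP12, the adaptor through which TREM2 and other receptors signal, and had the smallest p of all members. It was measured at 8.45, 8.42 and 7.97 on the OC2-KO arrays and at 6.74, 7.26 and 7.69 on the OC2-WT arrays, means of 8.28 ± 0.27 and 7.23 ± 0.48 (SD, n = 3 each). The genotypes did not overlap, and the gene passed the filter in both. The difference was 1.05 ± 0.30, a 2.08-fold higher intensity, with a limma unadjusted p of 0.00945 and an adjusted p of 1.00. Pairs 1, 2 and 3 gave 1.71, 1.17 and 0.29, so the gap was narrowest in pair 3.

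Ly86 (MD-1), a partner of the receptor RP105 on macrophages, had 7.58, 8.07 and 7.84 in OC2-KO and 6.76, 7.87 and 7.10 in OC2-WT retinas. The OC2-KO array was the higher one in all 3 pairs, though the genotypes overlapped, and the difference was 0.58 ± 0.33 (limma unadjusted p = 0.117). Cd53, a tetraspanin of leukocytes, had 7.32, 7.58 and 7.04 in OC2-KO and 5.75, 7.32 and 7.11 in OC2-WT retinas. Array 1 of OC2-WT stood lowest, the other arrays overlapped, and the difference was 0.59 ± 0.43 (limma unadjusted p = 0.210). A dim second Cd53 probe set gave -0.76, and the first passed the filter through the OC2-KO arrays alone. Laptm5, a lysosomal membrane protein of blood cells, had 7.83, 7.68 and 7.17 in OC2-KO and 6.78, 7.46 and 7.41 in OC2-WT retinas. Here pair 3 ran the other way, at -0.24, and the mean difference was 0.34 ± 0.29 (limma unadjusted p = 0.272). Its other 4 probe sets, all below the filter, gave -0.26 to 0.60.

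**Figure D2:**
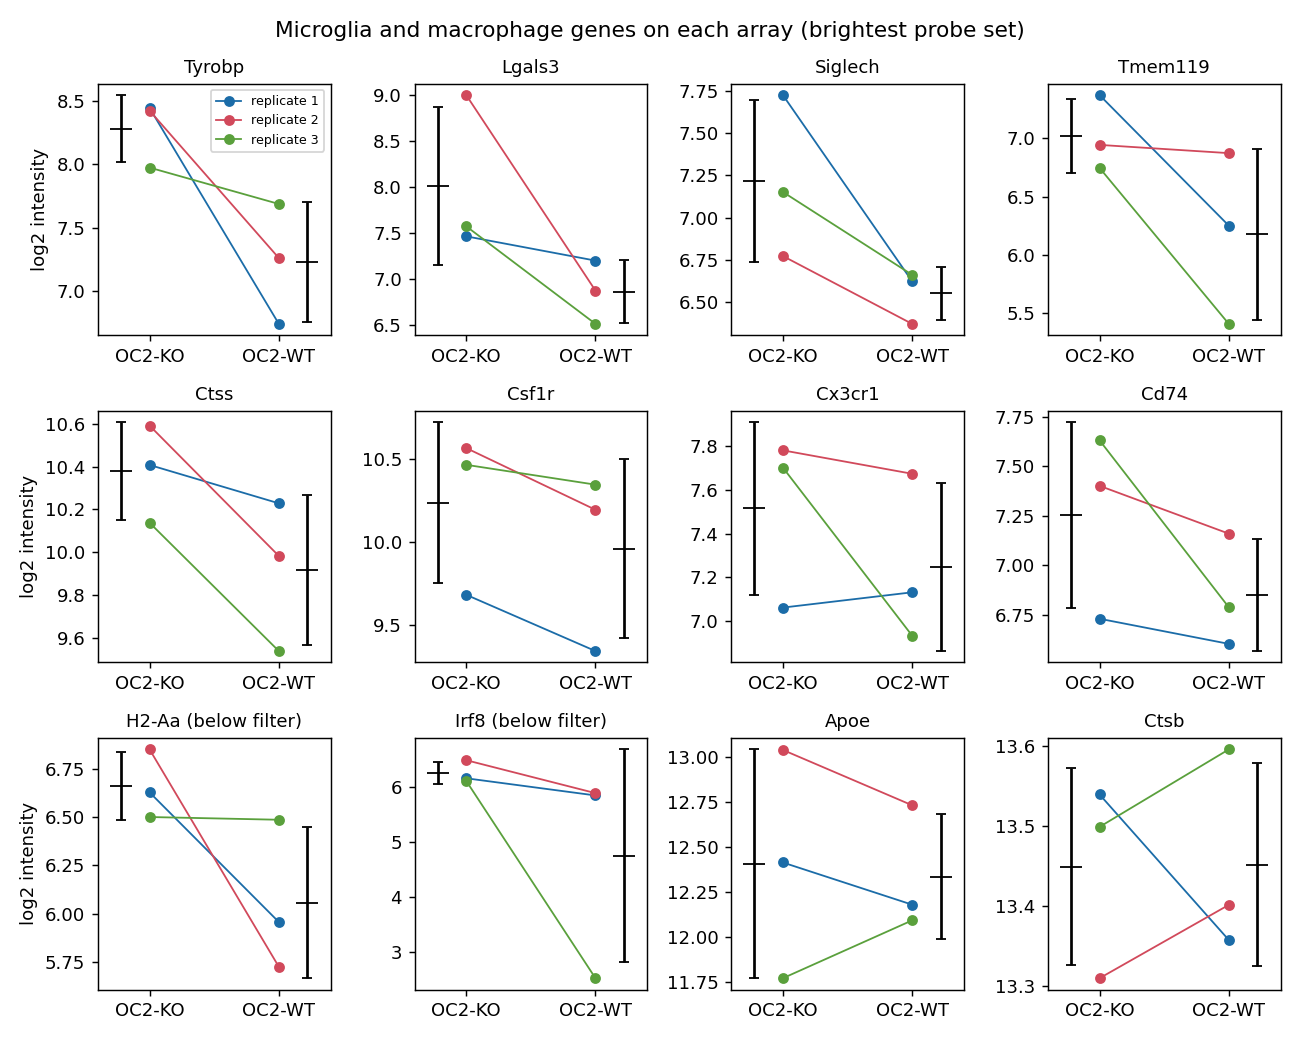
Log2 intensity of 12 microglia and macrophage genes on each array, OC2-KO left and OC2-WT right; lines join arrays with the same replicate number, and bars beside the points give the mean ± SD (n = 3). Tyrobp, Lgals3, Siglech, Irf8 and H2-Aa do not overlap between the genotypes, and Ctsb has nearly the same mean in both.

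The remaining genes of the lineage were dim or uneven. Mpeg1, which encodes the pore-forming protein perforin-2, was higher in OC2-KO in all 3 pairs but lowest on array 1 of both genotypes, and its difference of 0.89 had an SE of 0.81. It passed the filter through the OC2-KO arrays alone, and the difference was 0.041 without array 1 of OC2-WT and 1.51 without array 1 of OC2-KO. Fcer1g, the common gamma chain of Fc receptors, was the one gene of this group with the lower OC2-KO mean, at -0.067 ± 0.31. Below the filter, the integrin chains Itgam and Itgb2 had differences of 0.98 and 0.68, the Fc receptor Fcgr3 0.41, the CD45 phosphatase Ptprc 0.54, and the complement receptors C3ar1 and C5ar1 0.056 and 0.97. Itgb2 was higher in OC2-KO in every pair, but the pairs of the other 5 disagreed in sign, with C3ar1 at -3.88, -0.39 and 4.44.

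Of the genes of activation and the lysosome, 10 of the 12 named had the higher mean in OC2-KO retinas. Lgals3 encodes galectin-3, a carbohydrate-binding protein of phagocytic microglia, and had the largest difference of any member past the filter. It was measured at 7.46, 9.0 and 7.57 in OC2-KO and at 7.20, 6.87 and 6.51 in OC2-WT retinas, means of 8.01 ± 0.86 and 6.86 ± 0.34 (SD, n = 3 each). The genotypes did not overlap, the gene passed through the OC2-KO arrays alone, and array 2 of OC2-KO stood highest. The difference was 1.15 ± 0.44, a 2.22-fold higher intensity (limma unadjusted p = 0.0339, adjusted p = 1.00), and without array 2 of OC2-KO it was 0.66.

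Ctss, a lysosomal protease of microglia that also trims the class II invariant chain, had 10.41, 10.59 and 10.14 in OC2-KO and 10.23, 9.98 and 9.54 in OC2-WT retinas. OC2-KO was higher in all 3 pairs with a small overlap, and the difference was 0.46 ± 0.26 (limma unadjusted p = 0.116). Gpnmb, a transmembrane glycoprotein of lipid-laden macrophages and pigment cells, had 7.41, 8.43 and 8.56 in OC2-KO and 7.41, 7.23 and 8.59 in OC2-WT retinas. Pairs 1 and 3 lay close to 0 and pair 2 at 1.20, the genotypes overlapped, and the mean difference was 0.39 ± 0.46 (limma unadjusted p = 0.421), with -0.26 from a dim second probe set. Lgmn, the lysosomal asparaginyl endopeptidase, had 12.26, 11.91 and 11.78 in OC2-KO and 12.09, 11.74 and 11.71 in OC2-WT retinas. OC2-KO was higher in each pair, by 0.17, 0.18 and 0.070, and the difference of 0.14 ± 0.23 was smaller than its error.

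The bright lysosomal and lipid genes, which neurons and other glia also express, lay close to 0. Ctsb, Ctsd and Ctsz, all cathepsins, differed by -0.0022 ± 0.20, -0.025 ± 0.20 and 0.18 ± 0.33, and Apoe, the apolipoprotein of lipid transport in glia, by 0.073 ± 0.36. The other 3 Ctsb probe sets past the filter gave -0.12 to 0.0026 and a dim one below it -0.80, and those of Ctsz gave -0.32 and 0.21. The dim activation genes had larger and less even differences. Trem2, the lipid-sensing receptor that signals through Tyrobp, differed by 1.03 with its first probe set and -0.87 with its second, both below the filter. The cystatin Cst7, the endosomal glycoprotein Cd68 and the lysozyme Lyz2 differed by 1.07, 0.39 and 0.96, with only Lyz2 higher in OC2-KO in all 3 pairs. Over all 12 genes of the group the median was 0.39, and over the 8 past the filter it was 0.16.

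The 4 antigen-presenting genes all had the higher mean in OC2-KO retinas, with a median difference of 0.76, and all but 1 were below the filter. Cd74, the invariant chain that guides class II molecules to the endosome, had 6.73, 7.40 and 7.63 in OC2-KO and 6.60, 7.16 and 6.79 in OC2-WT retinas. OC2-KO was higher in each pair, the genotypes overlapped, Cd74 passed the filter through the OC2-KO arrays alone, and the difference was 0.40 ± 0.30 (limma unadjusted p = 0.220). H2-Aa, the alpha chain of the class II molecule I-A, had 6.63, 6.85 and 6.50 in OC2-KO and 5.96, 5.72 and 6.49 in OC2-WT retinas. The genotypes did not overlap, but the gap in pair 3 was only 0.014, and the mean difference was 0.60. Its other 3 probe sets, all dimmer, overlapped between the genotypes and gave 0.11 to 0.63, and 2 of them were lower in OC2-KO in pair 3. Its partner chain H2-Ab1 differed by 0.91, with pair 3 at -0.13 and its other probe sets at 0.13 and 0.37, and the I-E beta chain H2-Eb1 by 0.96, higher in OC2-KO in each pair.

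Sequence in front of these genes was examined for the sites of factors that act in myeloid cells and on class II genes. RefSeq windows of 250 bases before to 50 after the transcript start (GRCm38.p6) were matched for 28 of the 36 genes, in 34 windows. The PU.1 word GAGGAAGT, on either strand, occurred in the windows of 2 of the 28 genes, Cd53 and Ctss, or 7.14%, against 3.69% of all 27025 genes. The composite element of PU.1 with an IRF partner occurred in that of Cd68, or 3.57% of the 28 genes, against 3.16% of all. The CCAAT word of NF-Y, which is part of the conserved upstream element of class II genes, occurred in 14 of the 28 genes, against 41.1% of all genes, including both class II genes with a window, H2-Aa and H2-Eb1. These matches are a description and do not show a bound site. The windows with the PU.1 word and the class II windows are printed 5′ to 3′ on the gene's strand, with PU.1 and CCAAT words of either strand in capitals.
Ctss, chr3:95526536-95526835, plus strand: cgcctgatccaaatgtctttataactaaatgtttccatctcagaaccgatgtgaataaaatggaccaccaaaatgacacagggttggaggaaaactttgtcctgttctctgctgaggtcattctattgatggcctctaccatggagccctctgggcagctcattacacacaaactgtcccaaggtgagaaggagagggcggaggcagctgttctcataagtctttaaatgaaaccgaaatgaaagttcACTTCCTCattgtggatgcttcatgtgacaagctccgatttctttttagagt
Cd53, chr3:106790100-106790399, minus strand: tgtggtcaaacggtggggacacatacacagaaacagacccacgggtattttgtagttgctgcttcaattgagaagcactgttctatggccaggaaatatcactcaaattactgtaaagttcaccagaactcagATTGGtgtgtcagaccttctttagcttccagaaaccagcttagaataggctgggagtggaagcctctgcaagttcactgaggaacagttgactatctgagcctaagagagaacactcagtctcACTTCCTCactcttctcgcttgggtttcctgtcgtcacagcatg
H2-Aa, chr17:34287774-34288073, minus strand: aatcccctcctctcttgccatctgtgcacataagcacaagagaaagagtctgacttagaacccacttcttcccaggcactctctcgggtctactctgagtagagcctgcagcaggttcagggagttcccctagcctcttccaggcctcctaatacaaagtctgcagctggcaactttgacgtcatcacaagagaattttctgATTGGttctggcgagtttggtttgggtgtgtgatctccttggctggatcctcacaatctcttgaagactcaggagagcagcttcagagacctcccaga
H2-Eb1, chr17:34305617-34305916, plus strand: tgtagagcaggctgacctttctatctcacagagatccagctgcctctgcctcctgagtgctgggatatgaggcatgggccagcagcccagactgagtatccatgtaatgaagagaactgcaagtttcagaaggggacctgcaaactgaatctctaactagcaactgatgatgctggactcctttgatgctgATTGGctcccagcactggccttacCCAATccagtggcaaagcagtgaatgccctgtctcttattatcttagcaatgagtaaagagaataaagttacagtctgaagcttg
In Ctss the PU.1 word begins at base -2 relative to the transcript start and in Cd53 at base 6, in both cases read on the opposite strand as ACTTCCTC. The CCAAT word lies at -48 in H2-Aa and at -59 and -35 in H2-Eb1. Of these 4 genes, H2-Aa alone did not overlap between the genotypes.

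The arrays were not equally far apart. Over the 36 genes, the highest value lay on an OC2-KO array for 31 genes (86.1%, against 52.8% of all genes) and the lowest on an OC2-WT array for 30 (83.3%, against 49.1%). Array 2 of OC2-KO held the highest value of 16 genes, and arrays 1 and 3 of OC2-WT held the lowest of 14 and 12. The median deviation from a gene's own mean was 0.042, 0.49 and 0.18 on the OC2-KO arrays and -0.37, 0.064 and -0.14 on the OC2-WT arrays. The median difference over the 36 genes was 0.46, 0.39 and 0.34 in pairs 1, 2 and 3, with 28, 31 and 23 genes higher in OC2-KO. Summed over the 36 genes, linear intensity was 28971 to 35145 on the OC2-KO arrays and 28446 to 30539 on the OC2-WT arrays, which overlapped. Most of that sum came from Apoe, Ctsb, Ctsd, Ctsz and Lgmn, which are bright and had small differences. Over the 31 genes without them it was 5243 to 7241 on the OC2-KO arrays and 3697 to 4838 on the OC2-WT arrays. Those sums did not overlap, but the genes left out were ones with small differences. No such sum is given for other sets of genes, so this gap is only a description. The median difference over all 36 genes was 0.31 without array 1 of OC2-WT and 0.36 without array 2 of OC2-KO. With replicate number as a block in the limma fit, 7 members instead of 2 passed an unadjusted p of 0.05 (Tyrobp, Lgals3, Siglech, Tmem119, Ctss, Ly86 and Mpeg1, all higher in OC2-KO), while 2.15% of the genes past the filter were higher at this threshold, and 0 passed after adjustment. Of the 7, Lgals3, Siglech, Tmem119 and Mpeg1 had passed the filter through the OC2-KO mean alone and so had to be higher there.

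**Figure D3:**
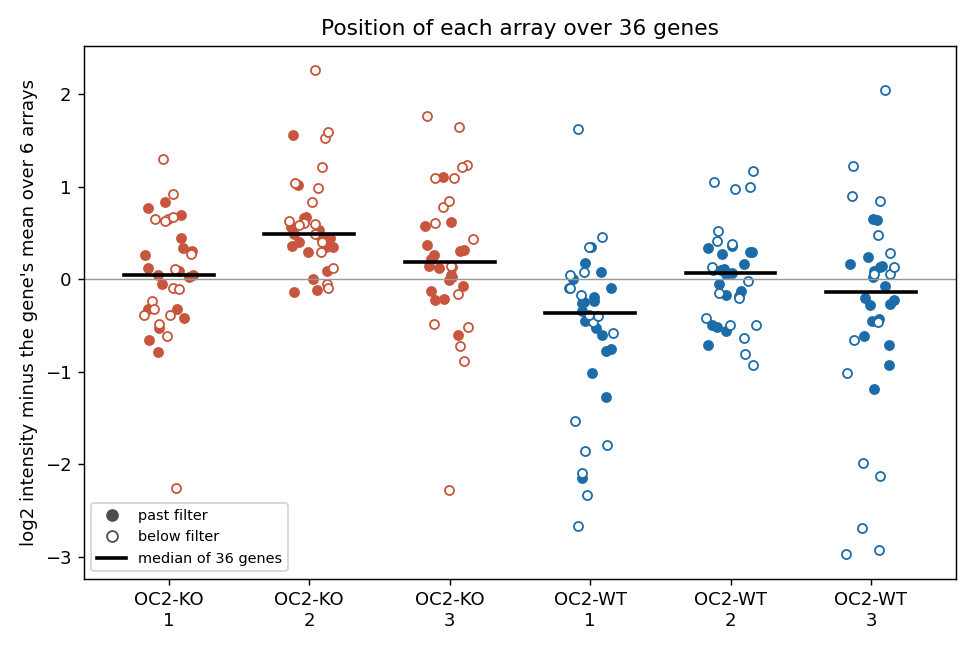
Deviation of each of 36 microglia and macrophage genes from its own mean over 6 arrays, in log2 units, for each array; filled points passed the filter and black bars are medians. The medians are 0.042, 0.49 and 0.18 on the OC2-KO arrays and -0.37, 0.064 and -0.14 on the OC2-WT arrays.

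Other genes of microglia were mixed in direction. Of 60 further microglia genes, 38 had the higher mean in OC2-KO retinas and 22 the lower, with a median difference of 0.20. Of all genes, 51.3% had the higher mean. Below the filter, Gpr34, P2ry13, Olfml3, Slc2a5 and Fcrls differed by 0.027, -0.020, 0.084, -0.090 and -0.36, while Sall1 and P2ry6 had 0.71 and 1.84. Past the filter were 18 of the 60 genes, and 10 of the 18 were higher, with a median of 0.13. Of all genes past the filter, 48.8% were higher. At an unadjusted p of 0.05 in limma 1 of the 18 was higher, as were 0.732% of all genes past the filter. That gene was Cyba, the p22phox subunit of the phagocyte oxidase, with 7.73, 7.97 and 8.07 in OC2-KO and 7.06, 7.59 and 7.28 in OC2-WT retinas, which did not overlap. Its difference was 0.62 ± 0.23 (limma unadjusted p = 0.0318, adjusted p = 1.00). The next by p were Alox5ap (leukotriene synthesis) at 0.51 ± 0.25, C1qa (complement) at 0.59 ± 0.35, the inhibitory Fc receptor Fcgr2b at 0.42 ± 0.26, the phosphatase Ptpn6 at 0.73 ± 0.55 and Arhgdib at 0.23 ± 0.19. Alox5ap and Arhgdib did not overlap between the genotypes, and 0 of these 5 passed an unadjusted p of 0.05 in limma. Every OC2-KO array lay above every OC2-WT array for 6 of the 60 genes, against 2.87% of all genes. For 0 of the 60 did every OC2-KO array lie below, against 2.25%. Past the filter, 3 of the 18 lay above, against 1.95% of all genes past it. Of 8 further antigen presentation genes, 7 had the higher OC2-KO mean (median 0.36), and the 3 past the filter, Ifi30, Cd83 and Ctsl, differed by 0.51, 0.19 and 0.061.

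Markers of other cells that could share these genes were set beside them. For monocytes, border macrophages and neutrophils, 6 of 12 markers had the higher mean in OC2-KO retinas (median 0.0070), and the summed intensity was 580 to 878 on the OC2-KO arrays and 672 to 860 on the OC2-WT arrays. For lymphocytes 5 of 9 did so (median 0.19), with sums of 227 to 493 in OC2-KO and 325 to 355 in OC2-WT. Of these blood cell markers 1 in each list passed the filter, and the mean log2 intensity was under 5 in both genotypes for 5 of the 12 and 7 of the 9. Müller glia markers were higher for 5 of 11 (median -0.073), astrocyte markers for 6 of 6 (median 0.21), vascular markers for 11 of 11 (median 0.34) and pigment epithelium markers for 5 of 9 (median 0.019). Of the pigment epithelium markers past the filter, 3 of 7 were higher (median -0.39), and the sums of that list varied widely, at 13960 to 68599 in OC2-KO and 23933 to 84624 in OC2-WT retinas. Vascular sums were 2939 to 5635 in OC2-KO and 2501 to 4427 in OC2-WT retinas and overlapped. The glial filament gene Gfap had 8.61, 9.0 and 8.31 in OC2-KO and 6.12, 7.58 and 8.03 in OC2-WT retinas, a difference of 1.40 that, like that of Tyrobp, was smallest in pair 3. Whether the vascular and astrocyte genes play a part in the values of the microglia genes was not tested.

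**Figure D4:**
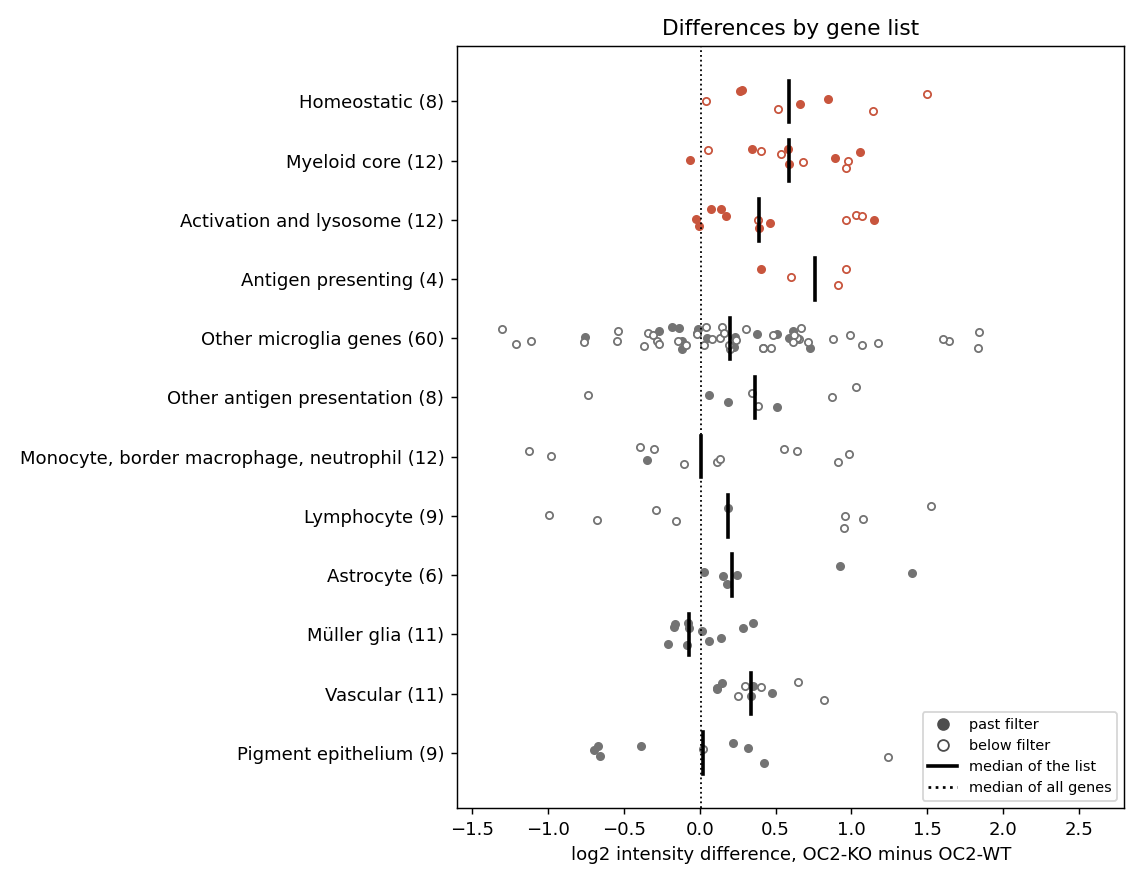
Log2 intensity difference, OC2-KO minus OC2-WT, of the 36 genes by role (red) and of genes of other lists (grey), 1 point a gene; black bars are list medians and the dotted line is the median of all genes, 0.0085. The medians of the 4 role groups lie at 0.59, 0.59, 0.39 and 0.76. Other microglia and other antigen presentation genes have medians of 0.20 and 0.36. Those of the vascular, astrocyte, lymphocyte and Müller glia lists lie at 0.34, 0.21, 0.19 and -0.073. The monocyte and pigment epithelium lists have 0.0070 and 0.019 (-0.39 for pigment epithelium genes past the filter).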

How the data were processed

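Retinas of adult OC2-KO mice and OC2-WT littermates were profiled on 6 Affymetrix arrays. Per the methods and the labels, total RNA was amplified and biotinylated. The authors adjusted background and normalised with MAS5 in the affy R package (versions: not given in the sources used here). Their deposited intensity values are linear and scaled to a 2% trimmed mean of 500 per array, which hides any shift shared by all genes. For arrays, their number limits the precision. Of 45101 probe sets, 64 controls were left out. After log2 transformation, 21176 probe sets with a genotype mean above 7 were fitted with limma 3.58.1 (R 4.3.3; lmFit and eBayes, two-sided, 4 residual degrees of freedom) and adjusted by Benjamini-Hochberg. Probe sets with several gene symbols stayed in the fit, but no gene was named from one.

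The member genes, role groups and other lists were chosen with earlier results of these data known. Members that passed an unadjusted p of 0.05, did not overlap between genotypes or had the 4 smallest p-values of their role group are given on every array, and other microglia and antigen presentation genes by the 6 smallest p-values.

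Deviations from genotype means correlated at 0.576, 0.590 and 0.585 within replicate numbers 1, 2 and 3, and at -0.429 to -0.135 for arrays whose numbers differ. Deviations sum to 0 within a genotype, so positive values within numbers push the others below 0, and the negative values add no support. The numbers were taken as pairs, which rests on the correlations within numbers and not on the labels. Alternatives were other filters, normalisations, weights, probe set rules and tests, a replicate block, a floor at 6 and leaving out arrays or pairs. Leaving out pair 1 or 2, and the alternatives for the 36 genes without a filter, were added after seeing the data.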

Additional observations from a re-analysis of the deposited data

How the results depend on the processing

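With 3 arrays a genotype, 0 members passed an adjusted p of 0.05 in limma under any alternative run, and neither did any probe set. At an unadjusted p of 0.05, 209 probe sets became 1144 with no filter, 127 with a filter at 8, 436 with array weights and 887 with the replicate block, and 209 to 560 with 1 array left out, the highest without array 2 of OC2-KO. The 2 members became 1 with no filter, 1 with the methods' t-test, 7 with the replicate block, 1 with any pair left out and 1 to 3 with 1 array left out, the lowest without array 3 of OC2-WT. The 3 members past the filter that did not overlap became 2 with median centring, 2 with a filter at 8 and 5 with no filter. They became 6 to 8 without a pair and 3 to 7 with 1 array left out, since fewer arrays have to be separated. Of all genes, 1.95% past the filter and 2.87% with no filter did not overlap, with OC2-KO higher. No such share is given for runs with fewer arrays, so those counts are not read as a result. The median difference of 0.39 past the filter was 0.56 with no filter, 0.23 with a filter at 8, 0.26 with array weights, 0.52 with plain-suffix probe sets and 0.22 to 0.49 with 1 array left out, the lowest without array 1 of OC2-WT, and the cause was not tested. The activation median of 0.16 was 0.39 with no filter and 0.39 with plain-suffix probe sets. With 1 array left out, the medians past the filter were 0.11 to 0.89 for the myeloid lineage (0.11 without array 1 of OC2-WT, and 0.27 with array weights), 0.071 to 0.28 for activation, 0.45 to 0.53 for homeostatic and 0.22 to 0.67 for antigen-presenting genes. Over the 36 genes, the median of 0.56 was 0.21 with a floor at 6, which sets dim genes equal, 0.47 without pair 1 and 0.31 to 0.64 with 1 array left out. The 33 genes with the higher OC2-KO mean became 28 with the floor and 29 to 33 with 1 array left out.

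Filters, intensity trends, the replicate block and the t-test leave the difference of a probe set as it is. Where the genotypes do not overlap, as for Tyrobp and Lgals3, leaving out arrays cannot change the sign either. The directions below are therefore only a description. Directions were kept in all 21 alternatives by Tyrobp (0.73 to 1.44), Lgals3 (0.66 to 1.59) and Ctss (0.27 to 0.62). Siglech (0.57 to 0.88) and Tmem119 (0.38 to 1.23) kept theirs in the 18 alternatives where they passed the filter. Cd53, Cd74, Cx3cr1, Lgmn, Ly86 and Mpeg1 also never changed sign where they had a value, but reached as low as 0.0030 (Lgmn). Several of the others changed sign. With array weights Apoe was -0.17, Ctsb 0.025 and Ctsd 0.058. With 1 array left out, the range was -0.24 to 0.39 for Apoe, -0.049 to 0.070 for Ctsb, -0.093 to 0.048 for Ctsd, -0.13 to 0.39 for Ctsz, -0.30 to 0.24 for Fcer1g and -0.032 to 0.55 for Csf1r. Without pair 1, Fcer1g was 0.18, Laptm5 -0.0092 and Apoe -0.0069. Without pair 2, Apoe was -0.043, Gpnmb -0.014 and Ctsb 0.042. Without pair 3, Ctsb was 0.045 and Ctsd 0.080. The cause was not tested.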
